A study of Mus musculus with 8 samples.

Results

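The CC chemokine system of the GL261 glioma was followed through 9 genes: the ligands Ccl2, Ccl7, Ccl12, Ccl3, Ccl4, Ccl5, Ccl6 and Ccl9 and the receptor Ccr2. They were listed by name with no threshold on their values, but with earlier results of these data known. Counts of members set beside all genes below therefore describe this list only. All 9 were among the 18473 genes kept from 8 single-cell libraries. The study implanted 500 GL261 cells, a mouse glioma line, into the brains of C57BL/6N mice (C57BL/6 in the labels), either wild type mice (WT, Acod1 +/+) or mice lacking ACOD1/IRG1, the enzyme that makes itaconate (KO, Acod1 -/-, a knockout-first allele). Tumours were collected by volume at an early (5 to 10 cubic millimetres), intermediate (20 to 25) and late (30 to 35) stage, beside naïve brains that received no tumour cells. Each genotype and stage was 1 library, from 1 mouse for a tumour and from 2 pooled mice for a naïve brain according to the labels, so no condition had a replicate. In the methods of the study, the WT and KO mice differed in sex at the early and at the intermediate stage, so that sex and genotype cannot be told apart there.

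CC chemokines are small secreted proteins that bind G protein-coupled receptors on leukocytes and direct their migration. Ccl2, Ccl7 and Ccl12 are monocyte attractants that bind CCR2, Ccl3 and Ccl5 bind CCR1, Ccl4 attracts lymphocytes and monocytes, and Ccl6 and Ccl9 are rodent chemokines that act through CCR1. In the brain, resident microglia lack CCR2, which marks monocytes and the macrophages that derive from them, as well as some lymphocytes. The question put to the data was which cells of the tumour hold the ligand transcripts and which hold the receptor.

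The 8 ligand genes lie on chromosome 11 in GRCm38, in a pair of blocks 1422 kb apart. Ccl2, Ccl7 and Ccl12, the CCR2 ligands, span 67.8 kb (chr11:82035571-82103400, + strand), and Ccl5, Ccl9, Ccl6, Ccl3 and Ccl4 span 139 kb (chr11:83525778-83664683, all on the - strand but Ccl4). Ccr2 lies on chromosome 9 (chr9:124101950-124113557, + strand).

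Libraries held 2885345 to 9950713 unique molecular identifiers (UMIs, 1 per captured transcript), and the 5698 cells kept had a median of 2598 to 5638 UMIs per library. At most 2 cell barcodes were shared by any pair of libraries, 22 in all over 28 pairs. Cell classes were rebuilt by clustering with the whole CC family (40 genes) left out, and named from markers that hold no chemokine gene. The study's terms are used here: TAM I for the microglia-like cells of tumour-bearing brains (172 cells, 5 to 64 per library), and TAM II for the macrophage-like cells that led in Lyz2, Arg1 and Il1b (416 cells, 16 to 114 per library). The same marker lists named the clusters, so their sums describe the classes and do not check the names. The 14 microglia markers summed to 27582 to 34216 CPM (the share of all UMIs in the summed cells, scaled to 1000000) in TAM I and to 9331 to 13555 CPM in TAM II. The 13 macrophage markers summed to 3347 to 6118 CPM in TAM I and to 25767 to 35888 CPM in TAM II. Markers and chemokines were read in the same cells, and other genes that go with the chemokines took part in the clustering, so the tests between classes below compare groups made from these cells. The WT intermediate library was thin in TAMs (5 TAM I and 16 TAM II cells).

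Acod1 itself was measured at 228, 115 and 38.2 CPM in TAM I of the WT early, intermediate and late libraries and at 0, 6.75 and 0 CPM in those labelled KO. In TAM II it was at 128, 35.4 and 8.56 CPM in WT and at 68.2, 13.7 and 68.3 CPM in KO. Whether the interrupted allele still gives a 3′ end that can be counted was not tested, so these UMIs do not settle the labels, which according to the methods rest on PCR genotyping, and WT and KO mean the libraries labelled so.

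Pooled over the 6 tumour-bearing libraries, TAMs held most transcripts of 8 of the 9 genes while making up few of the cells. Of the cells from the 6 tumour-bearing libraries, 3.59% were TAM I, 8.69% TAM II, 3.90% lymphocytes and 70.8% tumour cells. TAM I held 65.2% of the Ccl3 UMIs and 58.1% of the Ccl4 UMIs. TAM II held 89.4% of the Ccl6 UMIs, 84.5% of Ccl9, 77.0% of Ccl7, 69.2% of Ccr2 and 54.0% of Ccl2. Ccl12 was shared, with 45.3% in TAM I and 47.7% in TAM II. Single libraries varied around these pooled shares. The TAM II share ran from 79.92% to 96.53% for Ccl6, from 32.47% to 85.22% for Ccr2 and from 20.92% to 84.44% for Ccl2. The TAM I share of Ccl3 ran from 27.44% to 79.62%. Tumour cells held up to 45.85% of the Ccl2 UMIs and up to 37.66% of the Ccr2 UMIs of a library. Ccl5 differed from the others in that its 5469 UMIs were spread over many classes, and lymphocytes held 29.7%, tumour cells 27.5%, TAM II 23.6%, an unnamed cluster 9.18% and TAM I 6.24%. That order rested on WT early, without which lymphocytes held 14.95%, tumour cells 39.9%, TAM II 25.6% and TAM I 2.54%. These are shares of all captured transcripts, so they move with the number of cells of a class in the library as well as with the level in each cell.

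**Figure D1:**
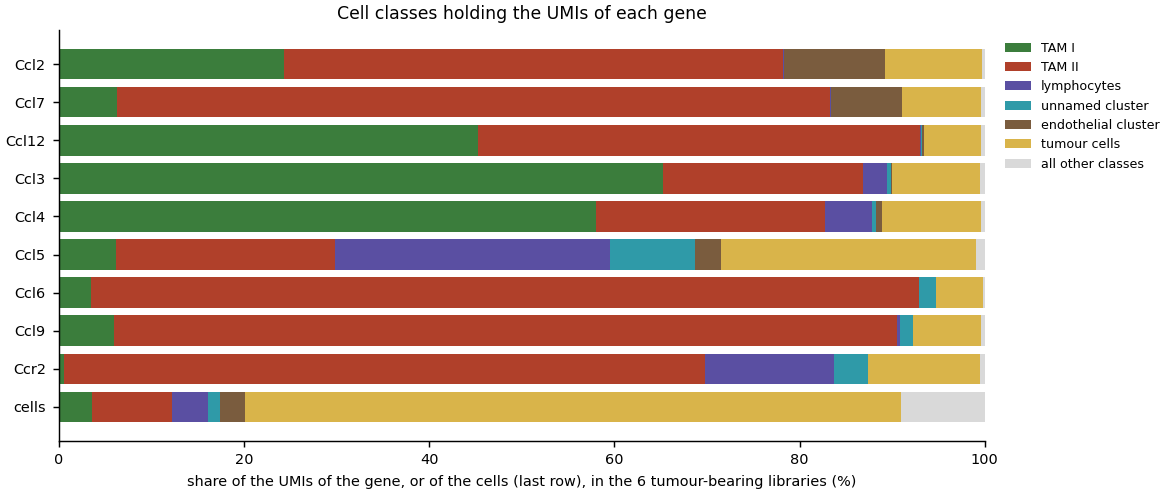
Share of the UMIs of each gene (percent, x axis) held by each cell class in the 6 tumour-bearing libraries pooled, with the share of cells in the last row. TAM I and TAM II fill most of every bar but that of Ccl5, although they are a small part of the bar of cells.

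**Figure D2:**
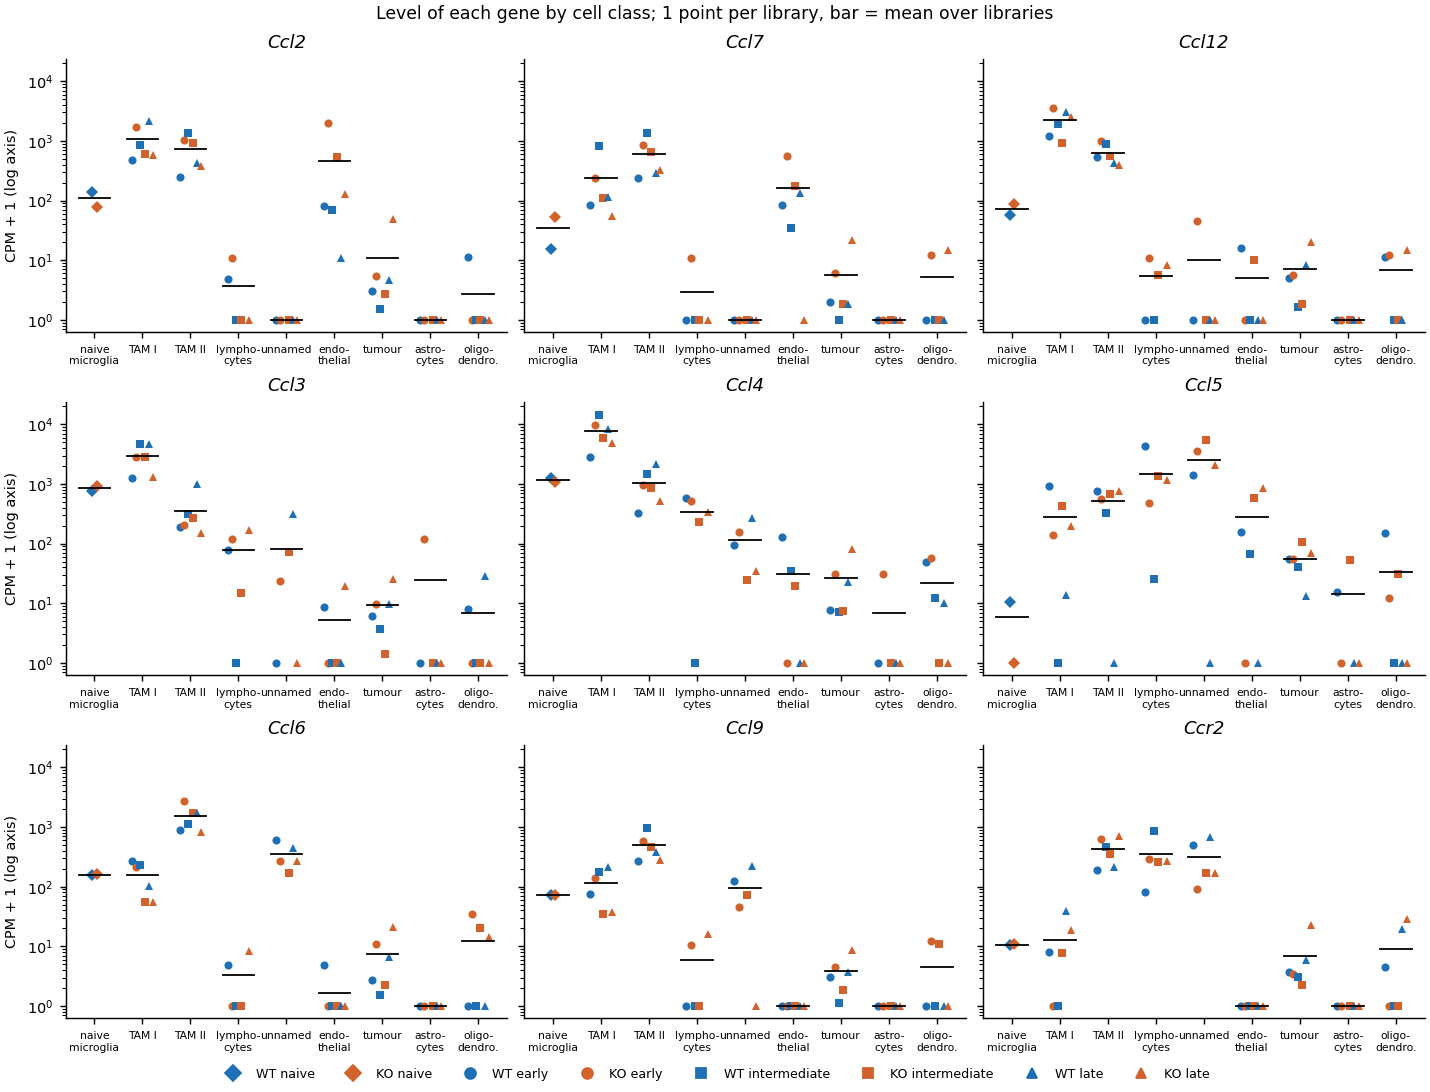
Level of each gene as CPM + 1 (log axis) by cell class, 1 point per library with at least 5 cells of the class, coloured by genotype and shaped by stage, and a bar at the mean over libraries. A class without a UMI of the gene lies at 1, and the naïve column holds the 2 naïve libraries only.

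Microglia-like cells of tumour-bearing brains carried more of the CCR2 ligands and of Ccl3, Ccl4 and Ccl5 than those of naïve brains, and like amounts of Ccl6 and Ccl9. Of the 8 members with enough counts, 6 rose and none fell, against 9.44% of 3136 genes that rose and 7.17% that fell (edgeR quasi-likelihood test, Benjamini-Hochberg adjusted p under 0.05 over all genes). The median log2 fold change was 2.39 over these 8 members and -0.001 over all genes. Most naïve microglia-like cells lay in 1 cluster (210 cells, 200 of them naïve) and most TAM I cells in another (168 cells, 6 of them naïve). A contrast against 2 naïve libraries rests on each of them, and the number of genes called fell from 521 to 106 without the WT naïve library and to 102 without the KO naïve library.

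Among the CCR2 ligands, Ccl12 was at 57.3 CPM in the WT and 87.8 CPM in the KO naïve library, and at 918, 2222 and 3587 CPM (lowest, median and highest) over the 6 tumour-bearing libraries. Every tumour-bearing library lay above both naïve libraries, by a log2 fold change of 4.88 ± 0.56 (SE, adjusted p = 2.49e-05). Ccl2 was at 139 and 78.1 CPM in the naïve libraries and at 471, 740 and 2128 CPM in TAM I, again without overlap (3.30 ± 0.59, adjusted p = 0.000942). Without the KO naïve library, Ccl2 missed the threshold narrowly (adjusted p = 0.0508). Ccl7 was at 14.3 and 52.1 CPM in the naïve libraries and at 54.1, 111 and 808 CPM in TAM I. The call of Ccl7 stood at the edge of the threshold (2.09 ± 0.70, adjusted p = 0.0484), and it held in only 10 of 19 settings, with adjusted p from 0.00493 to 0.532 and a loss without either naïve library (0.532 and 0.0964), without KO early (0.106) or without KO intermediate (0.0727).

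Ccl3 and Ccl4, which encode macrophage inflammatory proteins 1-alpha and 1-beta, were already plentiful in naïve microglia-like cells. Ccl4 stood at 1241 CPM in WT naïve and 1067 CPM in KO naïve cells, and at 2851, 7195 and 14599 CPM in TAM I (log2 fold change 2.68 ± 0.47, adjusted p = 0.000802). Ccl3 stood at 774 and 927 CPM in the naïve libraries and at 1277, 2843 and 4754 CPM in TAM I (1.70 ± 0.45, adjusted p = 0.0155). The groups did not overlap for either gene. The call of Ccl4 held in all 19 settings, as did that of Ccl12, whereas Ccl3 was lost without the WT naïve (adjusted p = 0.327) or the KO naïve library (0.0955).

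Ccl5, a T cell and monocyte attractant, went from 2 UMIs in 206 naïve cells to 341 UMIs in 172 TAM I cells. The pooled ratio of the CPM was 135, with an exact counting interval of 37.2 to 1123. The level was uneven over the libraries, at 910 CPM in WT early, 141 in KO early, 0 in WT intermediate, 432 in KO intermediate, 12.7 in WT late and 198 in KO late. The fitted increase passed the test (adjusted p = 0.00366) but not without the KO naïve library (0.0797), and WT intermediate overlapped the naïve range. Left out of the mean, WT early took the level in TAM I from 282 to 157 CPM.

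Ccl6 and Ccl9 gave no call between tumour-bearing and naïve brains. Ccl6 was at 158 and 159 CPM in the naïve libraries and at 54.0, 157 and 268 CPM in TAM I, and Ccl9 at 71.6 CPM in each naïve library and at 33.7, 108 and 217 CPM in TAM I. The tumour-bearing libraries lay on both sides of the naïve ones (log2 fold change -0.10 ± 0.45 for Ccl6 and 0.38 ± 0.50 for Ccl9). The sign of Ccl6 changed with the setting, from -0.69 to 0.43. Ccr2 had too few counts to be tested, with 5 UMIs in the naïve cells and 7 in TAM I.

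**Figure D3:**
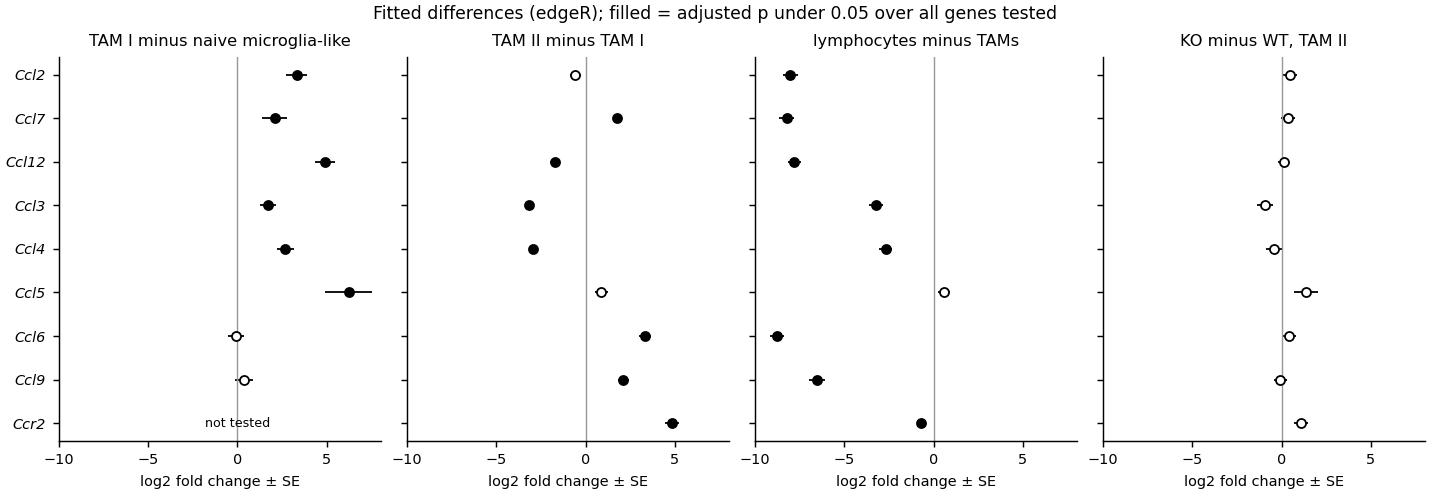
Fitted log2 fold change (x axis, with its standard error) of each gene in 4 comparisons, with filled points for an adjusted p under 0.05 over all genes tested. Ccl3, Ccl4 and Ccl12 lie to the left and Ccl6, Ccl7, Ccl9 and Ccr2 to the right of 0 between TAM II and TAM I, and no gene is filled between KO and WT.

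Within the tumours, the chemokines divided between TAM II and TAM I. Ccl6, Ccl7, Ccl9 and Ccr2 were higher in TAM II, and Ccl3, Ccl4 and Ccl12 were higher in TAM I, while Ccl2 and Ccl5 gave no call. Thus 4 of 9 members rose and 3 fell, against 13.9% and 13.1% of 3764 genes, or 27.0% in either direction (12 sums, library as a block). The 7 calls held in all 17 settings tried.

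On the TAM I side, Ccl3 was at 147, 236 and 1010 CPM (lowest, median, highest) in TAM II against 1277, 2843 and 4754 CPM in TAM I, with no overlap between the classes (log2 fold change -3.16 ± 0.21, adjusted p = 3.61e-09). Ccl4 was at 325, 922 and 2165 CPM in TAM II against 2851, 7195 and 14599 CPM, also without overlap (-2.93 ± 0.19, adjusted p = 3.61e-09). Ccl12 differed less, at 401.5, 545 and 978 CPM in TAM II against 918, 2222 and 3587 CPM, and its ranges overlapped between libraries (-1.72 ± 0.25, adjusted p = 4.02e-05). Pooled over libraries, the CPM in TAM II was 0.107 times that in TAM I for Ccl3, 0.138 times for Ccl4 and 0.341 times for Ccl12.

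On the TAM II side, Ccl6 was at 834, 1441 and 2698 CPM against 54.0, 157 and 268 CPM in TAM I, and every TAM II sum lay above every TAM I sum (3.33 ± 0.33, adjusted p = 5.01e-07). Its neighbour Ccl9 was at 270, 422 and 967 CPM against 33.7, 108 and 217 CPM, likewise without overlap (2.12 ± 0.29, adjusted p = 1.82e-05). Ccl7 was at 236, 487 and 1333 CPM against 54.1, 111 and 808 CPM, with overlapping ranges (1.75 ± 0.23, adjusted p = 1.06e-05). In the WT intermediate library, Ccl7 in TAM I (808 CPM) came from 14 UMIs in 5 cells.

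The split between TAM I and TAM II crossed shared receptors and gene blocks. Of the CCR2 ligands, Ccl12 was higher in TAM I, Ccl7 in TAM II, and Ccl2 was at 251, 679 and 1345 CPM in TAM II against 471, 740 and 2128 CPM in TAM I (-0.57 ± 0.29, adjusted p = 0.175). Ccl3 and Ccl6, neighbours in the same block among the members, went opposite ways. Ccl5 was at 0, 618 and 766 CPM in TAM II and at 0, 170 and 910 CPM in TAM I (0.89 ± 0.35, adjusted p = 0.0648). It passed the threshold in 4 of 17 settings, among them without WT early (1.48 ± 0.34, adjusted p = 0.00477) and without WT late (adjusted p = 0.0223).

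The bases before the start of 4 of these ligands are shown because 2 led in TAM I and 2 in TAM II while all 4 lie on chromosome 11. RefSeq (GRCm38.p6) gave a promoter for 5 of the 9 members, these 4 and Ccr2, and none was matched for Ccl2, Ccl4, Ccl5 and Ccl7. The 250 bases before the start are printed 5′ to 3′ on the strand of the gene, with matches in capitals. The Ccl3 window is chr11:83649379-83649628 (- strand) and the Ccl12 window chr11:82101595-82101844 (+ strand).
Ccl3: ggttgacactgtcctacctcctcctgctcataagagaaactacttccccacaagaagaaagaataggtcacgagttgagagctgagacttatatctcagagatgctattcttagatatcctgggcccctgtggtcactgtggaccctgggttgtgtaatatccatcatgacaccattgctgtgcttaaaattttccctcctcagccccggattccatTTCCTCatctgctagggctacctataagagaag
Ccl12: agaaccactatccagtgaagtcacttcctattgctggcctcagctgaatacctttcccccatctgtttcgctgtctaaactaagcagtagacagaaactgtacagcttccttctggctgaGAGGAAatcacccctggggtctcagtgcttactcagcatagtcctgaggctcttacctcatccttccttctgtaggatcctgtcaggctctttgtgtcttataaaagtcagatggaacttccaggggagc
The TAM II-led genes follow, with Ccl6 at chr11:83593088-83593337 and Ccl9 at chr11:83578637-83578886, both on the - strand.
Ccl6: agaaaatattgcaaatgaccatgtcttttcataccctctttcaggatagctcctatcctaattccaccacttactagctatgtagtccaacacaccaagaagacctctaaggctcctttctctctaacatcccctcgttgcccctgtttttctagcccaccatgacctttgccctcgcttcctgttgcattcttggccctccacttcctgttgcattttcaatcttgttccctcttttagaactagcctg
Ccl9: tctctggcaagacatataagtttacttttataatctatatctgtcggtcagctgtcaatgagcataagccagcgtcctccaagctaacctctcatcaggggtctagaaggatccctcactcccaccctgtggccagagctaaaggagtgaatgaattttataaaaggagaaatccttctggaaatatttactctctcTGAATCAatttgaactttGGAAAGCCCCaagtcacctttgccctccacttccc
Of 4 motifs searched on both strands, the PU.1 core GAGGAA, which macrophage transcription factors of the ETS family bind, was found in Ccl12 (130 bases before the start) and, on the opposite strand, in Ccl3 (33 bases before), and it is in 23.25% of all 32851 promoter windows of this length. The AP-1 element TGANTCA (53 bases before the start, a palindromic match) and the kappa-B consensus (35 bases before) were found in Ccl9 only, against 6.75% and 7.25% of all windows, and did not overlap. The interferon-stimulated response element core was in none of these windows, against 2.98% of all. Ccl6 and Ccr2 held no match of any of the 4.

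TAM II cells fell into 3 clusters, and the genes were not even across them. Cluster 12 (178 cells, led by Il1b, Lyz2, Arg1 and with Plac8 and Ly6c2 among its leading genes) had the highest Ccr2, at 683 CPM (exact Poisson 95% interval 606 to 767), against 392 (359 to 427) in cluster 14 and 305 (241 to 382) in cluster 15. Ccl6 went the other way, at 908 CPM in cluster 12, 1537 in cluster 14 and 1904 in cluster 15, as did Ccl7 at 244, 544 and 694 CPM. Ccl12 was at 333, 717 and 424 CPM. These intervals and values pool libraries and cover counting error only, and they were not tested. Cells of cluster 14 were deeper (median 6906 UMIs, against 2304 and 3398), and the split of TAM II differed between libraries: cluster 15 held 4.05% of TAM II in KO early and 4.39% in KO late, 26.2% in KO intermediate, and 27.4%, 18.8% and 50% in WT early, intermediate and late.

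Ccr2 was the receiver side of the list. In TAM II it was at 190 CPM in WT early, 626 in KO early, 460 in WT intermediate, 358 in KO intermediate, 214 in WT late and 698 in KO late. In TAM I only 7 UMIs were found in 172 cells, from 0 to 38.2 CPM over the libraries, and the pooled ratio of TAM II to TAM I was 41.0 (counting interval 19.8 to 102). The difference was 4.84 ± 0.39 on the log2 scale (adjusted p = 3.91e-08), with no overlap between classes. Lymphocytes carried Ccr2 at 81.5 CPM in WT early, 292 in KO early, 845 in WT intermediate, 256 in KO intermediate and 268 in KO late. Against all TAMs together they had less (-0.68 ± 0.24, adjusted p = 0.0226), a call lost without WT early (0.0866), KO early (0.0919) or KO late (0.167) and in DESeq2 (0.14). The ranges of TAM II, lymphocytes and the unnamed cluster (88.9 to 672 CPM) overlapped, and all 3 lay above those of TAM I, oligodendrocytes and tumour cells.

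Among the ligands listed, Ccl5 had the highest mean in lymphocytes (1471 CPM over 5 libraries), although Ccl4 was above it in KO early. Ccl5 was at 4345 CPM in WT early lymphocytes, 476 in KO early, 24.8 in WT intermediate, 1363 in KO intermediate and 1147 in KO late. The WT intermediate value came from 1 UMI in 6 cells, in which Trac, Cd3d, Cd3e and Cd3g were all at 0 while the lymphocyte markers summed to 28097 CPM. The same 6 cells had the highest Ccr2 of the lymphocytes. The part of that makeup in both values was not tested. WT late held 4 lymphocytes and was not used. In KO late, 1 cell gave 87 of the 154 Ccl5 UMIs.

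Against the TAMs of the same libraries, lymphocytes differed in Ccl5 by 0.57 ± 0.33 (log2, adjusted p = 0.168), a call gained in 4 of 15 settings. It was 1.10 ± 0.31 with at least 500 genes per cell (adjusted p = 0.00298), 0.78 ± 0.24 with doublets removed (0.00688), 0.80 ± 0.24 without WT intermediate (0.0116, the same fit as with at least 10 cells per sum) and 0.02 ± 0.32 without WT early (0.964). The other 8 members were all lower in lymphocytes, against 22.5% of 6004 genes that were lower, 20.2% that were higher and 42.6% in either direction (10 sums). Ccl4 was the next ligand in lymphocytes, at 582, 525, 0, 228 and 335 CPM in the same library order (-2.68 ± 0.38, adjusted p = 2.79e-06), and Ccl3 was at 77.6, 117, 0, 13.96 and 171 CPM (-3.22 ± 0.42, adjusted p = 6.22e-07). Ccl2, Ccl6, Ccl7, Ccl9 and Ccl12 gave 1 to 3 UMIs each in 183 lymphocytes. For Ccl12 the pooled CPM of TAMs was 209 times that of lymphocytes (counting interval 71.5 to 1016).

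A cluster of 62 cells that the markers did not name, led by Il1b, H2-Eb1 and Il12b, had Ccl5 at 1416 CPM in WT early, 3600 in KO early, 5515 in KO intermediate, 0 in WT late and 2087 in KO late. This was the highest mean Ccl5 of any class (2524 CPM), with a range that overlapped that of the lymphocytes. In the 4 of these libraries with a Ccl5 UMI, 3 to 9 cells held them. WT intermediate, with 2 cells, was left out of these levels, and the other libraries held 500 of the 502 Ccl5 UMIs. Ccl2 and Ccl7 had no UMI there (0 of 62 cells with a UMI, which allows up to 5.78% of cells with a UMI by the exact interval and does not limit cells that express the genes).

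**Figure D4:**
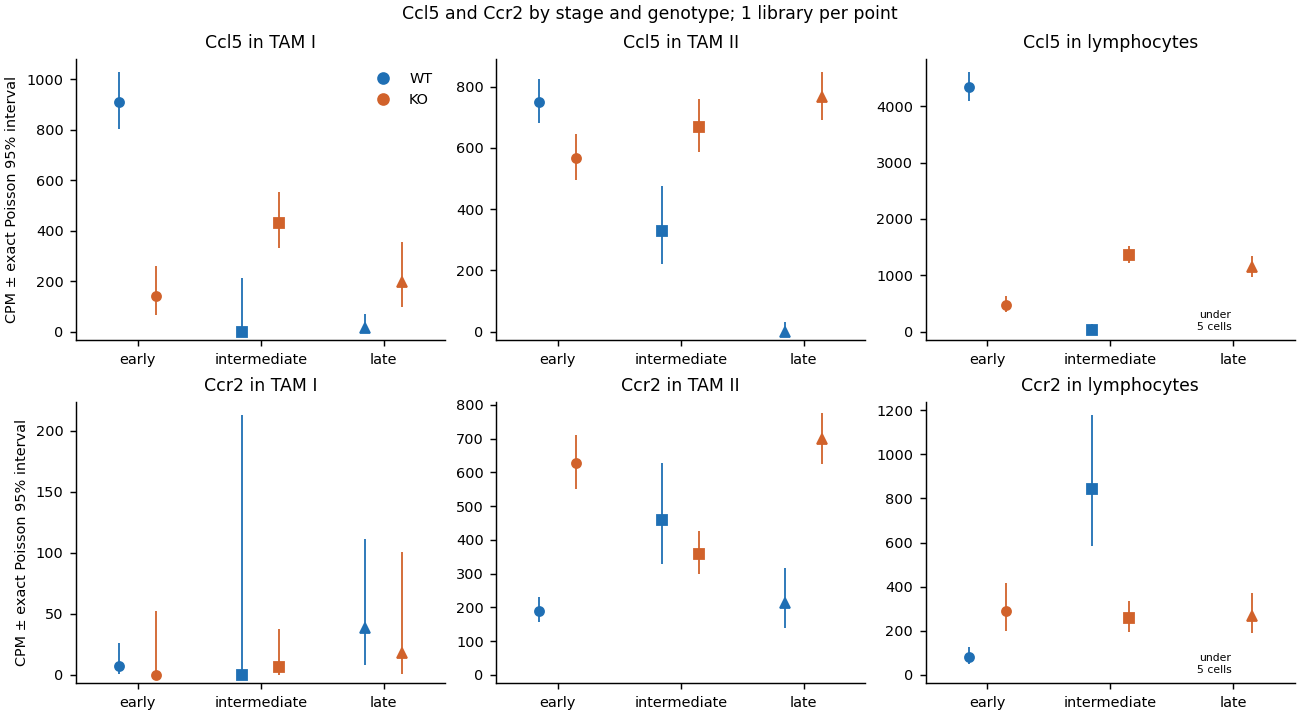
CPM of Ccl5 (upper row) and Ccr2 (lower row) with exact Poisson 95% intervals in TAM I, TAM II and lymphocytes by stage (x axis) and genotype (colour), 1 library per point. Ccl5 goes from 910 CPM in TAM I and 750 CPM in TAM II of WT early to 12.7 and 0 CPM in WT late, and Ccr2 in TAM I stays under 39 CPM in every library.

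The share of cells with a UMI followed the levels. With each cell thinned to 1500 UMIs, Ccl4 was found in 80.2% of TAM I cells (exact binomial 95% interval 73.5 to 85.9), 30.3% of TAM II (25.9 to 35.0), 26.9% of lymphocytes (20.7 to 33.9) and 34.5% of naïve microglia-like cells (28.0 to 41.4). Ccl6 was found in 53.1% of TAM II and 11.1% of TAM I, and Ccr2 in 37.7% of TAM II, 20.4% of lymphocytes and 1.16% of TAM I. Ccl5 was found in 46.8% of lymphocytes, 33.9% of TAM II and 22.7% of TAM I, and in 0 of 206 naïve cells (up to 1.77%). Oligodendrocytes of tumour-bearing brains, which should lack these genes, had a UMI in 0% to 2.69% of 223 cells at a median depth of 2729 UMIs, against 2927 in TAM I and 3360 in TAM II. For Ccr2 it was 0.448% (0.0113 to 2.47), and the 1.16% of TAM I cells (0.141 to 4.14) had an overlapping interval. In naïve brains, oligodendrocytes held 19 of 38 Ccl7 UMIs, as many as the microglia-like cells. They also held 12 of 66 Ccl2, 9 of 52 Ccl12 and 22 of 650 Ccl4 UMIs there. In these oligodendrocytes, the UMIs of Ccl7, Ccl2 and Ccl12 all came from the WT naïve library, and those of Ccl4 from both.

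**Figure D5:**
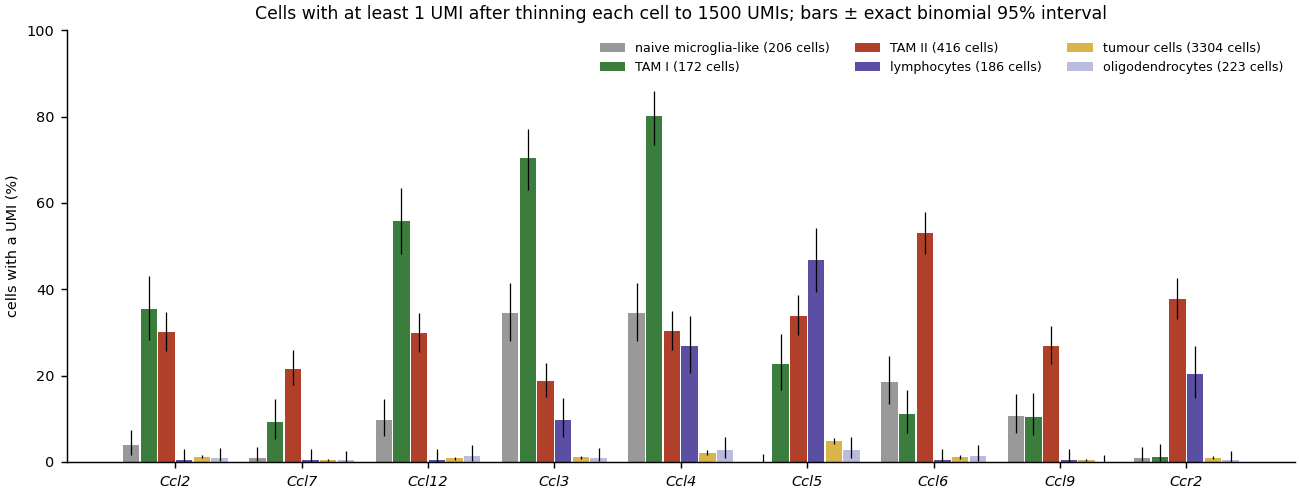
Percent of cells with at least 1 UMI of each gene after thinning every cell to 1500 UMIs, by class, with exact binomial 95% intervals. The bars of Ccl3, Ccl4 and Ccl12 are highest in TAM I, those of Ccl6, Ccl7, Ccl9 and Ccr2 in TAM II and that of Ccl5 in lymphocytes, while oligodendrocytes stay under 3%.

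Several ligands tended to be found in the same cells, and this was not limited to neighbouring genes or shared receptors. In TAM II, 43.2% of the cells with Ccl2 had Ccl4, against 24.7% of the others, and 48.0% had Ccl12, against 22.0%. In TAM I, Ccl12 was in 56.25% of the cells with Ccl7 and in 55.8% of those without. In thinned TAM I, 90.1% of the 121 cells with Ccl3 also had Ccl4, against 56.9% of the cells without it. In TAM II, 42.5% of the 221 cells with Ccl6 had Ccl9, against 9.23% of the others, and 43.2% of the 125 cells with Ccl2 had Ccl7, against 12.4%. Ccl6 and the receptor did not go together, with Ccr2 in 35.3% of TAM II cells with Ccl6 and in 40.5% of those without. Cells of a library share its depth and stage, so these shares are given without a test.

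Tumour cells were a weak source per cell. All 9 members were lower in tumour cells than in TAMs, against 24.9% of 13599 genes that were lower, 34.0% that were higher and 58.9% in either direction (12 sums). Differences ran from -3.30 ± 0.31 for Ccl5 (adjusted p = 1.64e-07) to -8.28 ± 0.54 for Ccl6 (adjusted p = 2.25e-09). Ccl5 was at 53.4, 53.8, 39.4, 104, 12.3 and 68.3 CPM in tumour cells of WT early, KO early, WT intermediate, KO intermediate, WT late and KO late. Of the 496 Ccl5 UMIs in KO intermediate tumour cells, 258 were in 1 cell. In each other gene the highest tumour-cell level was 7.81 to 80.6 CPM. Leukocyte transcripts moved with these values: 108 of 3392 tumour cells (3.18%) had 5 or more UMIs over C1qa, C1qb, C1qc, Csf1r, Ptprc, Laptm5 and Cd52, and they held 86.4% of the Ccl2 UMIs of the class, 81.7% of Ccl4, 60.3% of Ccr2 and 28.7% of Ccl5. KO late carried these shares, and without it they were 47.3% for Ccl2, 68.2% for Ccl4, 33.8% for Ccr2 and 21.9% for Ccl5. Without those cells, Ccl2 in KO late tumour cells went from 47.4 to 1.27 CPM and Ccl5 from 68.3 to 34.6 CPM.

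Outside the leukocytes, the endothelial cluster of tumour-bearing brains held 10.8% of the Ccl2 UMIs and 7.66% of the Ccl7 UMIs, and that of naïve brains held 0 in 199 cells. Without KO early the Ccl2 share was 5.61%. The source was narrower than the cluster: 39 of its 127 cells had more mural or fibroblast than endothelial marker UMIs, and these held 246 of 249 Ccl2 UMIs and 99 of 100 Ccl7 UMIs, in 12 cells each. Such cells were not counted among the 199 naïve ones, so the part of cluster makeup in that contrast was not tested. A single KO early cell held 158 Ccl2 and 45 Ccl7 UMIs, and without it 91 and 55 UMIs were left. By library Ccl2 in the cluster was at 80.5, 1988, 67.3, 531, 10.1 and 128 CPM from WT early to KO late. Ccl6, Ccl9 and Ccr2 gave 1, 0 and 0 UMIs in the cluster. Astrocytes of tumour-bearing brains had no UMI of Ccl2, Ccl7 or Ccl12 in 5 libraries.

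Comparing KO with WT within stages, none of the 9 members passed the test in TAM II (edgeR called 0.162% of 6154 genes, 0.0975% higher and 0.065% lower, DESeq2 called 10, and 284 had p under 0.05 before adjustment), and none of 8 passed in TAM I (edgeR called 0.0% of 1712 genes, DESeq2 called 1, and 74 had p under 0.05 before adjustment). In TAM II, Ccr2 was higher in KO at the early (626 against 190 CPM) and late stage (698 against 214) and lower at the intermediate stage (358 against 460), giving 1.08 ± 0.38 (edgeR adjusted p = 0.65). Without the intermediate stage it was 1.73 ± 0.41 (adjusted p = 0.00649). Ccl5 in TAM II was at 750, 330 and 0 CPM in WT early, intermediate and late and at 566, 670 and 766 CPM in KO (1.38 ± 0.67, adjusted p = 0.999), and without the early stage it was 2.67 ± 0.47 (adjusted p = 1.86e-06). Ccl3 in TAM II was at 187, 319 and 1010 CPM in WT and at 205, 268 and 147 CPM in KO (-0.93 ± 0.44, adjusted p = 0.999), and without the early stage it was -1.53 ± 0.42 (adjusted p = 0.0149). Without that stage Ccl4 passed as well in TAM II (adjusted p = 0.00401), and Ccl3, Ccl4 and Ccl5 passed in TAM I (0.0139, 0.000923 and 0.000923). Each fit without a stage rests on 1 library per genotype at each remaining stage. Little is then left to estimate the spread, so these p-values are weak evidence. Ccl6 in TAM I was at 268, 231 and 102 CPM in WT and at 212, 54.0 and 54.1 CPM in KO, lower at every stage (-0.90 ± 0.50, adjusted p = 0.999). Some of the TAM I sums rest on few cells, with 5 in WT intermediate, 19 in WT late and 17 in KO late. The cluster makeup of TAM II given above differed between the same libraries, and its part in these values was not tested.

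The difference between TAM II and TAM I, and that between TAM I and naïve cells, were tested for a difference by genotype, and no member passed. The lowest p was that of Ccl6 between TAM II and TAM I, 1.68 ± 0.58 greater in KO (edgeR adjusted p = 1.0). An adjusted p of this size does not show that the genotypes act alike.

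Late against early tumours gave no call among the members either, in TAM II (edgeR called 0.0325% of 6154 genes, 0.0162% in each direction, DESeq2 called 0, and 353 had p under 0.05 before adjustment) or TAM I (edgeR called 0.0% of 1712 genes, DESeq2 called 4, and 78 had p under 0.05 before adjustment). Ccl12 in TAM II was at 530 and 978 CPM in WT and KO early and at 419 and 401.5 CPM in late tumours (-0.98 ± 0.39, adjusted p = 0.707). Ccl5 in TAM I was at 910 and 141 CPM early and 12.7 and 198 CPM late, lower late than early in WT and higher in KO (-2.77 ± 1.20, adjusted p = 0.996), and without WT early the sign turned (0.49 ± 0.85). Without KO intermediate it was -2.39 ± 0.60 (adjusted p = 0.00921). Leaving out KO early (-6.86 ± 0.97, adjusted p = 5.21e-10) or KO late (-5.63 ± 1.18, adjusted p = 0.000468) left 1 library in that arm, which is assumed to vary like the other groups. The WT early mouse was female and the WT late mouse male in the methods, while both KO mice were male, so sex and stage cannot be told apart in WT. Ccl5 in TAM II went the same ways, from 750 to 0 CPM in WT and from 566 to 766 CPM in KO (-1.55 ± 0.80, adjusted p = 0.919). With WT early as the lone early library it was -3.26 ± 0.58 (adjusted p = 4.31e-06). Without KO late only the WT late library, at 0 UMIs, stood for the late stage, and the test was passed again (adjusted p = 2.22e-09). Ccl3 in TAM II passed in the same settings, each with 1 library in an arm (1.74 ± 0.51, adjusted p = 0.0404 without KO early, and 2.19 ± 0.54, adjusted p = 0.00903 without KO late), and Ccl4 without KO early (0.000434). Without WT early or WT late the difference of Ccl5 was -0.12 ± 0.46 and -0.04 ± 0.54. Ccl6 in TAM I was lower in both late libraries (-1.71 ± 0.58, adjusted p = 0.82).

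The other CC family genes, 31 in number, were counted beside the members. Only 3 to 10 of them had enough counts to be tested, depending on the comparison. Ccrl2, an atypical receptor that presents chemerin, rose in TAM I over naïve cells (2.70 ± 0.41, adjusted p = 0.000224). It was 1 of 3 tested there, beside 9.44% of all genes that rose. Between TAM II and TAM I, 3 of the 4 tested were higher in TAM II, beside 13.9% of all genes. They were Ccr1, the receptor of Ccl6 and Ccl9 (5.23 ± 0.44, adjusted p = 5.38e-08), Ccl8 (2.35 ± 0.69) and Ccrl2 (0.95 ± 0.18). TAM II held 86.8% of the Ccr1 UMIs and 71.6% of the Ccrl2 UMIs. Ccr7, which guides cells to lymph nodes, was higher in lymphocytes than in TAMs (3.35 ± 0.50, adjusted p = 4.97e-06), with 60.0% of its UMIs in the unnamed cluster, which also held 71.8% of the Ccl17 UMIs. Ackr3, a scavenging receptor of CXC ligands (5.11 ± 0.54), Ccl25 (1.94 ± 0.32) and Ccl27a (2.45 ± 0.55) were higher in tumour cells than in TAMs, with Ccl27a uncertain because of its near-identical copy Ccl27b. Ccl8 and Ccl24, which attract monocytes and eosinophils, were the family genes called between KO and WT in TAM II (adjusted p = 0.00598 for both). Ccl8 was at 161.7, 0 and 68.5 CPM in WT early, intermediate and late and at 647, 448 and 1538 CPM in KO (3.40 ± 0.51), and Ccl24 was at 0, 0 and 17.1 CPM in WT early, intermediate and late and at 397, 19.1 and 58.0 CPM in KO. Both calls were lost with all genes clustered (0.076) and in DESeq2 (0.13 for Ccl8 and 0.999 for Ccl24), and that of Ccl8 without the block (0.395).

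Of 22 genes that signal behind CC receptors, 14 were tested between TAM I and naïve cells, with none higher and 2 lower (9.44% and 7.17% of all genes), Rgs2 (-1.30 ± 0.38), which damps G protein signals, and Was (-1.30 ± 0.38), which drives actin assembly. Between TAM II and TAM I, 2 of 16 were higher (Rgs1 and Was) and 2 lower (Plcb2 and Prex1), shares near the 13.9% and 13.1% of all genes. The medians were -0.37 in the first comparison and 0.05 in the second, against -0.001 and 0.06 over all genes. Of 15 genes induced by NF-kB, the factor that also drives many chemokine genes, 8 of 13 were higher in TAM I than in naïve cells, led by Il1b (8.95 ± 0.77), Tnf (5.56 ± 0.70), Il1a (3.63 ± 0.57) and Cd83 (2.71 ± 0.42), with a median of 1.93. Between TAM II and TAM I, 2 of 14 were higher, with Il1b at 1.77 ± 0.20, and 5 lower, with Tnf at -2.66 ± 0.26, Icam1 at -1.67 ± 0.26 and Il1a at -1.50 ± 0.28. Lymphocytes had 1 signalling gene higher than TAMs, Rac2 (1.84 ± 0.18), 7 of 16 lower, and 11 of 15 NF-kB genes lower, beside 20.2% of all genes higher and 22.5% lower. Tumour cells had 2 of 20 signalling genes higher and 16 lower, and all 15 NF-kB genes lower, beside 34.0% of all genes higher and 24.9% lower. No gene of either list passed between KO and WT or between late and early tumours.

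Over the 55 class and library sums with at least 10 cells, the ligands other than Ccl5 moved together. Among them, Pearson's r of log2(CPM + 10) ran from 0.56 (Ccl7 and Ccl3) to 0.94 (Ccl6 and Ccl9). It was 0.92 for Ccl3 and Ccl4, 0.90 for Ccl2 and Ccl7 and 0.86 for Ccl12 with Ccl3 or Ccl4. The lowest of all members was 0.21, for Ccl5 and Ccl7. Outside the family, Ccl12 was most like Il1a (0.95), Tlr2 and C3ar1, Ccl3 like Susd3, Trem2 and Tlr7, and Ccl4 like Cd84, Lat2 and Bin2. Ccl6 was most like Clec7a, Wfdc17 and Nlrp3, and Ccl9 like Osm, Rab32 and Pilra. Ccl2 was most like Rab3il1, Adgre1 and C5ar1, Ccl7 like Spp1, Hacd4 and Ptgs2, Ccl5 like Il2rg, Nabp1 and AA467197, and Ccr2 like Slfn1 (0.94), Runx3 and Gpr132. The sums share libraries, depth and the split into leukocytes and other cells, so these values describe and carry no test.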

How the data were processed

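Single-cell suspensions of 8 brains or tumours were profiled by Drop-seq, in which a bead captures the 3′ ends of the transcripts of 1 cell. The authors deposited a table of raw UMI counts per gene and cell for each library, and submitters' processing notes name bcl2fastq 2.0, STAR and GRCm38/mm10. From these counts, the deepest 1000 barcodes of each table were taken, and of these the cells with at least 1000 genes were kept, with genes found in at least 30 cells, and clustered on a t-SNE of principal components without the CC family (Python 3.11.15, scanpy 1.11.5, scikit-learn 1.9.0, Rtsne 0.17). Clusters were named from marker lists that hold no CC gene. Doublets stayed in the main data. Scrublet marked 1 to 11 cells per library, under 0.5% in 5 libraries, where its threshold is taken not to have worked. An alternative removed its calls or, in those 5 libraries, the 5% of cells with the highest doublet score.

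UMIs were summed per library and class of at least 5 cells and tested over all genes with the quasi-likelihood test of edgeR 4.0.16 in R 4.3.3 (TMM, filterByExpr, Benjamini-Hochberg adjusted p under 0.05). Library was a block between classes, stage a block between genotypes, and genotype a covariate elsewhere. Libraries of different stage or genotype served as replicates of a class, so p-values measure the spread between these libraries. CPM is the UMIs of a gene over those of the sum, scaled to 1000000. Intervals are exact 95% intervals and cover counting error only. The scripts were tested on simulated data. Alternatives were DESeq2 1.42.0, its size factors, no filter, at least 500 genes or 10 cells, other clusterings, no block or covariate, and leaving out each library or stage. The splits of the endothelial cluster and of tumour cells by marker UMIs, the removal of single cells, and the shares without each library were chosen after seeing the data.

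The members, gene lists and tests were chosen with earlier results of these data known. All 9 members entered every comparison in which they had enough counts. For lymphocytes, tumour cells, genotype and stage, the text gives fold changes of only some of them. Of the other CC family genes, the 10 with the most UMIs were to be named, of which 1 is not reported here, of the signalling and NF-kB lists at most 4 called genes with the largest changes per comparison, and for each member the 3 most correlated genes outside the family.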

Additional observations from a re-analysis of the deposited data

Results flagged for a closer look

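Of 36 groups of 4 to 10 libraries, 10 held a library far from the rest by Dixon's criterion, which chance gives in about 1 of 20 groups. Tumour cells of KO late held 6 of the 10, with Ccl2 at 47.4, Ccl7 at 20.4, Ccl12 at 19.4, Ccl3 at 24.4, Ccl4 at 80.6 and Ccr2 at 22.2 CPM, each the highest of 6 libraries. In that library 53 of 529 tumour cells had 5 or more leukocyte marker UMIs, and without them Ccl2 was at 1.27 CPM and Ccr2 at 5.401 CPM.

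Ccl7 in TAM I of WT intermediate (808 CPM, next 240 CPM) came from 14 UMIs in 5 cells. Ccl3 in TAM II of WT late stood at 1010 CPM (next 319 CPM), in 22 cells. Ccr2 in lymphocytes of WT intermediate stood at 845 CPM (next 292 CPM), in the 6 cells without Trac, Cd3d, Cd3e or Cd3g UMIs. Ccl7 in lymphocytes of KO early, at 9.72 CPM, was 1 UMI.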

How the results depend on the processing

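Mice could not be paired between groups, because the labels give no replicate numbers shared between groups. Classes were compared within libraries (library as a block), and genotypes within stages (stage as a block). Of the values that answer a comparison, 278 stayed within 1.5 times or within their error under an alternative and 55 moved. Of the values of single genes, 713 kept their direction and their side of the threshold, 17 lost and 19 gained a call, 11 changed sign and 2 untested ones moved. The causes were not tested. For microglia-like cells against naïve ones, leaving out a naïve library gave 106 (WT) or 102 (KO) genes in place of 521 (at most 629, without WT late), and 2 members in place of 6 without KO naïve. Ccl6 there turned to 0.43 with 500 genes per cell and 0.011 without the covariate, and ran from -0.69 to 0.36 without 1 library (0.08 without KO intermediate or KO late). Ccl9 ran from -0.15 (without WT naïve) to 0.87.

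Between KO and WT, TAM II gave 10 genes, and 0 with all genes clustered or without the block, 6 with Leiden clusters, 5 without TAMs that held lymphocyte UMIs, 56 without the filter, and 42 to 104 without the intermediate or early stage. Members called were 1 without the filter and 1 to 3 without a stage. TAM I gave 0 genes, and 1 in DESeq2, 4 without the filter, 3 with 10 cells and 39 without the early stage, with 3 members there. Between late and early, TAM II gave 2 genes, and 0 with all genes clustered, 500 genes per cell, DESeq2, no covariate or lymphocyte-UMI TAMs left out, 1 with Leiden clusters or doublets removed, 51 without the filter and 19 to 116 without 1 library, with 2 to 3 members. Without 1 library, Ccr2 ran from -0.55 (KO late, and -0.27 for WT early) to 0.65 and Ccl3 from -0.49 (WT late) to 2.19. TAM I gave 0 genes, and 3 with all genes clustered or 500 genes per cell, 4 in DESeq2 or with 10 cells, 16 without the filter and 2 to 41 without 1 library, with 1 member. Ccl5 there ran from -6.86 to 0.49 (without WT early).

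Shares of cells rose when not thinned, to 80.2% for Ccl3 and 68.6% for Ccl12 in TAM I, 69.5% for Ccl6 and 50.5% for Ccr2 in TAM II, and 55.1% for Ccl5 and 30.5% for Ccr2 in lymphocytes, and Ccl6 in TAM II was 46.6% at 1000 UMIs. Some sums hold few cells, down to 5.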
